A study of Mus musculus with 6 samples.

Results

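Potassium channel subunits were examined in RNA-seq of hypothalamus from wild-type mice and mice without SRC-1, a nuclear receptor coactivator encoded by Ncoa1. Members were the genes of the deposited table whose symbol is Kcn followed by 1 or 2 letters and a number, without Kcnf1 and Kcns3, which the rule leaves out. This gave 90 of the 50559 genes in the table. Of these, 85 had at least 10 counts summed over the 6 libraries and are described here by family. There were 37 voltage-gated subunits, 14 inward rectifiers, 12 two-pore subunits, 8 calcium-activated subunits (with their sodium-activated and Slo3 relatives) and 14 auxiliary subunits. The 2 groups had 3 libraries each, labelled wild type (WT) and SRC1 KO, and both came from hypothalamus with no treatment in the labels. Strain, age, sex, the part of Ncoa1 that was deleted and whether each library is 1 animal are not stated in the labels, so p-values measure the spread between these libraries, which may be technical.

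Potassium channels let potassium leave or enter the cell along its gradient, and so set the resting potential, end action potentials and control firing rate. Voltage-gated (Kv), calcium-activated and inward rectifier (Kir) channels assemble from 4 pore subunits, while 2 subunits make a two-pore (K2P) channel. Auxiliary subunits have no pore of their own and change the gating or traffic of the pore subunits. In hypothalamic neurons these channels are best known for linking glucose, hormones and transmitter receptors to excitability, and in glia Kir channels take up the potassium that neurons release.

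All pore subunits share 1 short stretch, the selectivity filter, whose backbone strips water from potassium ions. A search of 1 coding sequence per gene (GENCODE M39) looked for 5 codons in a row. These were threonine or serine, then threonine, valine, isoleucine, alanine or leucine, then glycine, then tyrosine, phenylalanine or leucine, then glycine. Each of the 37 voltage-gated, 14 inward rectifier and 8 calcium-activated genes had 1 match. Of the 12 two-pore genes, 11 had 2 matches, 1 for each pore domain of the protein, and Kcnk2 had 1. A search of 1 coding sequence with 1 pattern can miss a filter, so Kcnk2 is not shown to have only 1. None of the 14 auxiliary genes had a match. The coding strand around the filter is shown for 8 members described below, 5′ to 3′ in GRCm39. Each had an unadjusted p under 0.05 between the groups (edgeR), and none passed after adjustment. They carry the same pore element in different codons, some of which encode other amino acids that the pattern allows. Capitals mark the 5 filter codons.
Kcna1 (chr6:126619176-126619220, minus strand): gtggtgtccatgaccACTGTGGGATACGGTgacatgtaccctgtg
Kcna2 (chr3:107012525-107012569, plus strand): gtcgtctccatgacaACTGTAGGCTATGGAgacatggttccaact
Kcna5 (chr6:126510693-126510737, minus strand): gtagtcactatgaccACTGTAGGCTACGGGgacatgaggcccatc
Kcna6 (chr6:126715595-126715639, minus strand): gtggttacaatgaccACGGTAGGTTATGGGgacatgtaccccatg
Kcnc1 (chr7:46077382-46077426, plus strand): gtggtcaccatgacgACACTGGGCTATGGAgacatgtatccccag
Kcnj5 (chr9:32233840-32233884, minus strand): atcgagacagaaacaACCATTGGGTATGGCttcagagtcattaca
Kcnn1 (chr8:71303286-71303330, minus strand): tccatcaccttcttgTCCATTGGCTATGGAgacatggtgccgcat
Kcnk13, second filter (chr12:100027620-100027664, plus strand): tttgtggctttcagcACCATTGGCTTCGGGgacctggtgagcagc

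The deposited counts summed to between 36613507 and 46755553 per library. Ncoa1 had 4630 to 5406 counts in wild type and 1478 to 1766 in the knockout (log2 fold change -1.71 ± 0.065, edgeR adjusted p 1.87e-06), so each library matched its label. Genes that mark hypothalamus were detected in every library, with at least 515 counts of Sim1, 854 of Nkx2-1, 2716 of Hcrt and 5987 of Pmch. Others were less even. Pomc had 1893 to 3143 counts in wild type and 209 to 1376 in the knockout, and Agrp 152 to 531 and 50 to 121. Over all libraries Avp ran from 1023 to 6117 counts and Oxt from 638 to 7711. The part that dissection plays in these values was not tested. Of 20257 genes tested, 49 were higher and 120 lower in the knockout (edgeR, Benjamini-Hochberg adjusted p under 0.05). Lists of cell type markers were read beside the channels. The summed level of 10 oligodendrocyte markers ran from 4093 to 5233 CPM (counts scaled to a common library size by TMM) in wild type and from 6653 to 8900 CPM in the knockout. That of 10 ependymal and tanycyte markers ran from 147.5 to 169.3 CPM against 45.4 to 66.4 CPM, and that of 6 meningeal fibroblast markers from 59.5 to 225.6 CPM against 51.2 to 56.5 CPM. The sum of 12 neuron markers overlapped between the groups, at 6529 to 7149 CPM in wild type and 6975 to 7732 CPM in the knockout. That of 8 pituitary markers also overlapped, at 10.5 to 22.4 CPM in wild type and 1.86 to 12.1 CPM in the knockout. Gh alone held 11.7 CPM in wild-type replicate 1 and 6.67 CPM in knockout replicate 1. Of the 6 pituitary markers tested, 4 were lower and 0 higher at an unadjusted edgeR p under 0.05. Of all tested genes 7.21% were lower at that threshold. The median log2 fold change of the 6 was -2.87, and Pitx1 passed after adjustment (-3.70, edgeR adjusted p 0.00392). In bulk tissue, fewer cells of a type and less RNA per cell cannot be told apart, and the part that these lists play in any channel result was not tested.

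Levels of the channel genes came first. To compare genes with each other, CPM was divided by exon length in kb. This length joins all annotated exons of a gene, so genes with long annotated exons lie lower on this scale than in CPM. Over all 6 libraries the mean level ran from 0.0148 CPM per kb for Kcnj15 to 68.7 CPM per kb for Kcnj10, with a median of 1.91 over the 85 genes. Voltage-gated subunits held 41.3% to 44.2% of the summed channel level in each library, and inward rectifiers 23.5% to 26.2%. Auxiliary subunits held 14.7% to 15.4%, two-pore subunits 9.04% to 10.1% and calcium-activated subunits 7.37% to 8.56%.

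**Figure D1:**
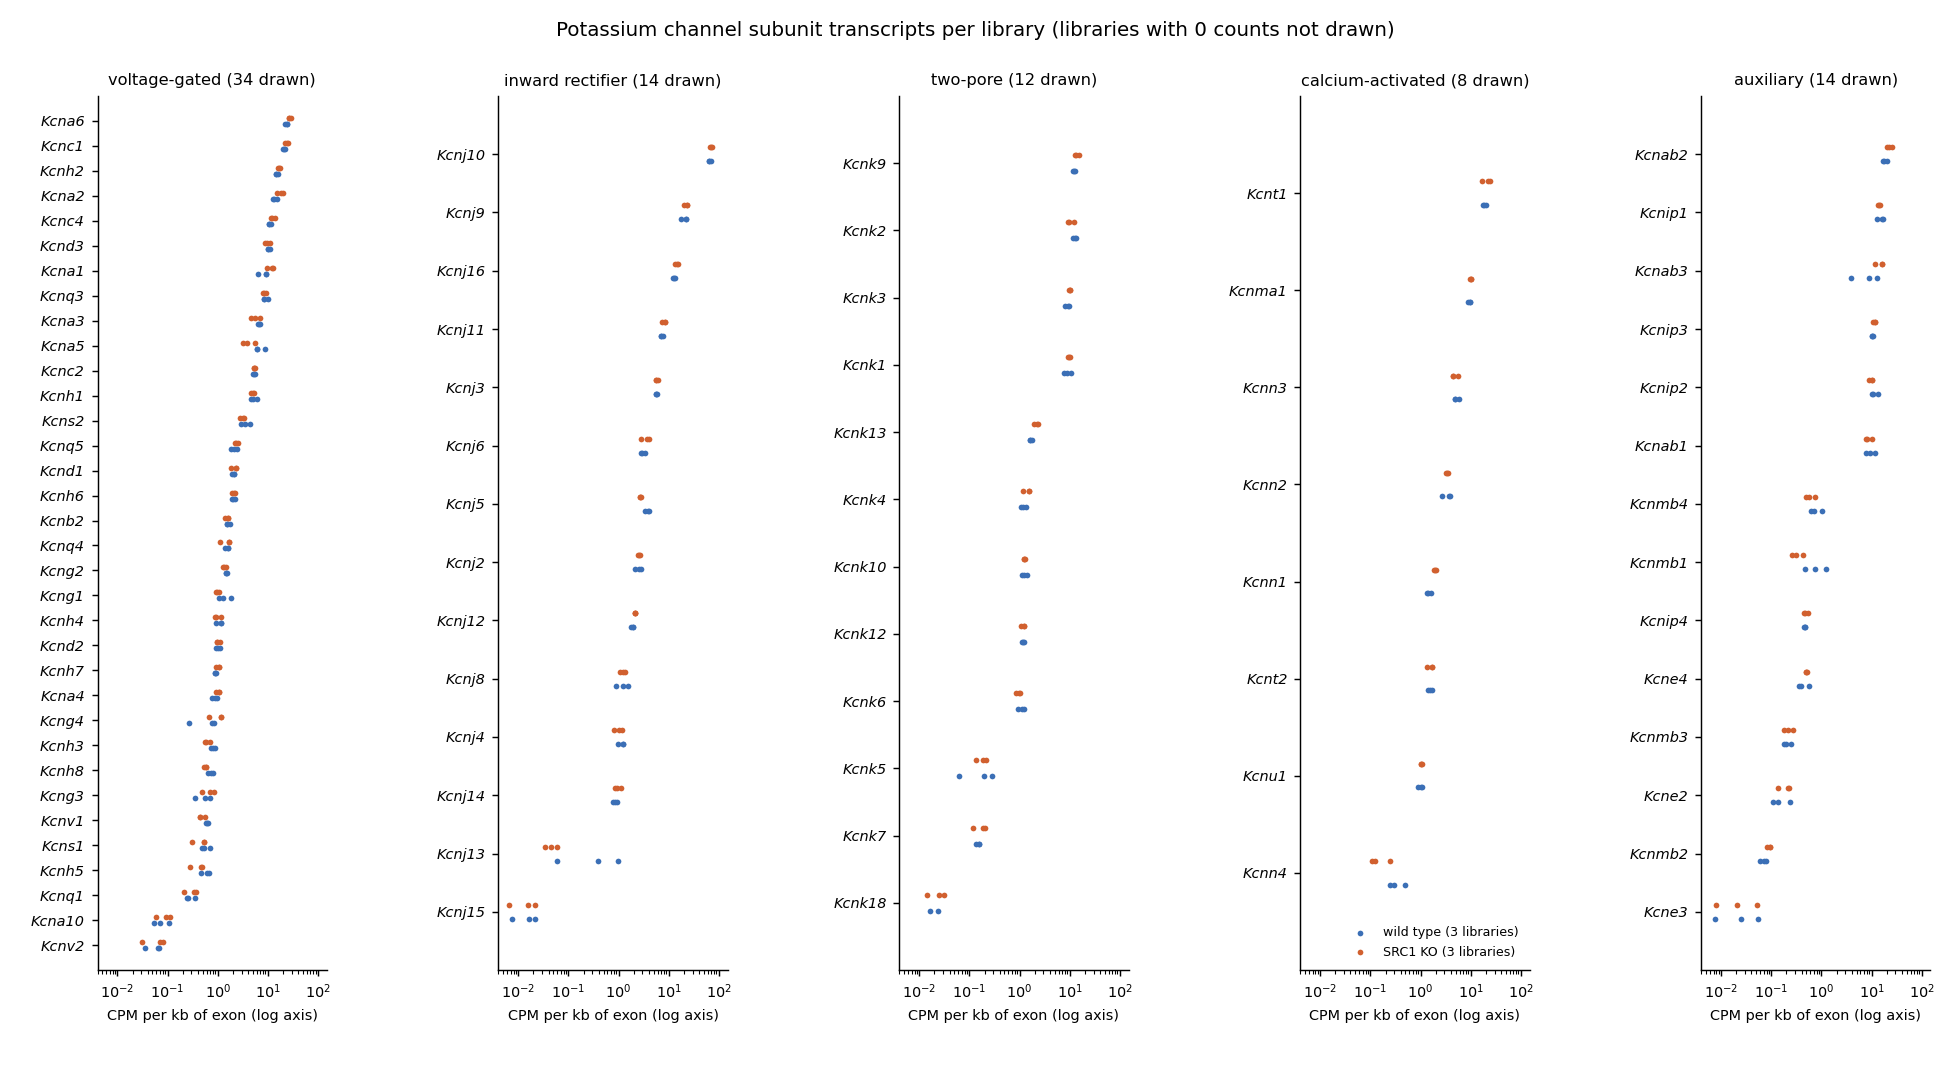
Level of 82 of the 85 channel genes in each library, in CPM per kb of exon on a log axis, with 1 panel per family. Blue points are the 3 wild-type libraries and orange points the 3 SRC1 KO libraries. Kcnj10 lies at 68.7 CPM per kb and Kcnj15 at 0.0148, and for most genes the points of both groups lie close together.

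Among the voltage-gated subunits, Kcna6 of the Kv1 subfamily stood at 23.6 ± 1.10 CPM per kb in wild type and 27.3 ± 1.76 in the knockout (SD, n = 3 each, as for all levels below). Kcnc1 of the Kv3 subfamily of fast-spiking neurons stood at 20.9 ± 0.713 and 24.0 ± 1.79, and Kcnh2, the ERG channel that also repolarises heart muscle, at 15.3 ± 0.732 and 16.8 ± 0.739. Kcnq3, a subunit of the M-current that limits repetitive firing, stood at 8.87 ± 0.899 and 8.64 ± 0.619. In wild type the mean ± SD of Kcna6 and Kcnc1 did not overlap, while those of Kcnh2 and Kcna2 (13.9 ± 1.53) did. At the low end, Kcna10 averaged 0.0822 and Kcnv2 0.0587 CPM per kb over all libraries.

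The inward rectifiers were led by Kcnj10, the main potassium-buffering channel of astrocytes and oligodendrocytes, at 66.4 ± 4.36 CPM per kb in wild type and 71.1 ± 3.73 in the knockout. Its partner Kcnj16 stood at 12.9 ± 0.417 and 14.4 ± 1.04. Of the G-protein-gated subunits, which carry the inhibitory current of many transmitter receptors, Kcnj9 was highest (20.3 ± 2.51 in wild type), followed by Kcnj3 (5.63 ± 0.152), Kcnj5 (3.74 ± 0.395) and Kcnj6 (3.05 ± 0.339). That order rests on the length: Kcnj6 has 22652 exon bases against 4954 for Kcnj5, and before division by length it had 69.1 ± 7.69 CPM in wild type, above Kcnj3 (62.9 ± 1.70) and Kcnj5 (18.5 ± 1.96). Kcnj11, the pore of the ATP-sensitive channel through which neurons sense glucose, stood at 7.24 ± 0.424 and 8.10 ± 0.554.

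Among the two-pore subunits, which carry background leak, Kcnk9 and Kcnk3 (acid-sensitive), Kcnk2 (stretch- and lipid-sensitive) and Kcnk1 lay close together, from 9.06 ± 1.45 to 12.6 ± 1.04 CPM per kb in wild type. That closeness rests on the length. Before division by it, Kcnk9 (15742 exon bases) had 192 ± 8.65 CPM in wild type. Kcnk2 (5167 exon bases) had 65.1 ± 5.38 CPM, Kcnk1 49.4 ± 7.91 CPM and Kcnk3 35.0 ± 3.40 CPM. The calcium-activated family was led by Kcnt1, a sodium-activated relative (19.0 ± 1.40 CPM per kb in wild type), and Kcnma1, the BK channel (9.46 ± 0.421). The small-conductance genes Kcnn3 (5.23 ± 0.649), Kcnn2 (3.40 ± 0.620) and Kcnn1 (1.45 ± 0.124) followed in that order. Of the auxiliary genes, Kcnab2, a cytoplasmic partner of Kv1 channels, was highest (18.5 ± 1.77), then Kcnip1 (15.4 ± 2.05), a calcium sensor that binds Kv4 channels.

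The comparison of the genotypes asked which channel genes differ when SRC-1 is absent. None of the 81 channel genes tested passed an adjusted p under 0.05 in edgeR's quasi-likelihood test, where 0.834% of all tested genes did (0.242% higher and 0.592% lower). At an unadjusted p under 0.05 there were 22, or 27.2%, against 13.0% of all tested genes. Of these, 12 were higher in the knockout and 10 lower, against 5.75% and 7.21% of all tested genes. Among genes with at least 1 CPM on average the shares were 21 of 76 channel genes and 14.0% of all. DESeq2 called 6 (Kcna1, Kcna2, Kcnn1, Kcnj5, Kcnj13 and Kcnmb1), where it called 4.01% of genes, and limma-voom called 0, where it called 0.928%. With no filter on low counts 6 were called, where 2.65% of genes were. The median log2 fold change was 0.058 over the 81 genes and 0.0042 over all tested genes. With 1 library left out, 81 channel genes were again tested. Those at an unadjusted edgeR p under 0.05 numbered 9 without wild-type replicate 1, 8 without knockout replicate 1 and 12 without knockout replicate 2. Of all genes tested, 1954 of 20673, 1692 of 20715 and 2124 of 20724 were under that threshold. The channel genes under it numbered 21 without wild-type replicate 2, 21 without wild-type replicate 3 and 23 without knockout replicate 3. Of all genes tested, 2820 of 20556, 2600 of 20753 and 3164 of 20763 were under it in those fits. Without both first replicates the count was 6, with 1224 of all genes under the threshold. Of the 22 genes 5 (Kcnj5, Kcnn1, Kcnmb1, Kcna2 and Kcnk13) were under it with each single library left out. With a median standard error of 0.11 on the log2 scale, differences of the size seen in most channel genes could not be told from the spread between libraries.

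By family, the medians were 0.023 for the 36 voltage-gated genes tested (5 higher and 5 lower at an unadjusted p under 0.05), 0.099 for 13 inward rectifiers (2 and 2), 0.11 for 11 two-pore genes (2 and 1), 0.046 for 8 calcium-activated genes (1 and 1) and 0.089 for 13 auxiliary genes (2 and 1). The groups did not overlap in 22 of the 81 genes, or 27.2%, against 17.6% of all tested genes. Of these, 13 were higher and 9 lower in the knockout, against 8.58% and 9.03% of all. With at least 1 CPM the groups of 21 of 76 channel genes did not overlap, against 18.4% of all. The log2 fold change was positive in 51 channel genes and negative in 30, and positive in 51.1% of all tested genes. The summed level of all 85 genes was 506, 512 and 527 CPM per kb in the wild-type libraries, and in those of the knockout it was 570, 544 and 536, with no overlap.

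**Figure D2:**
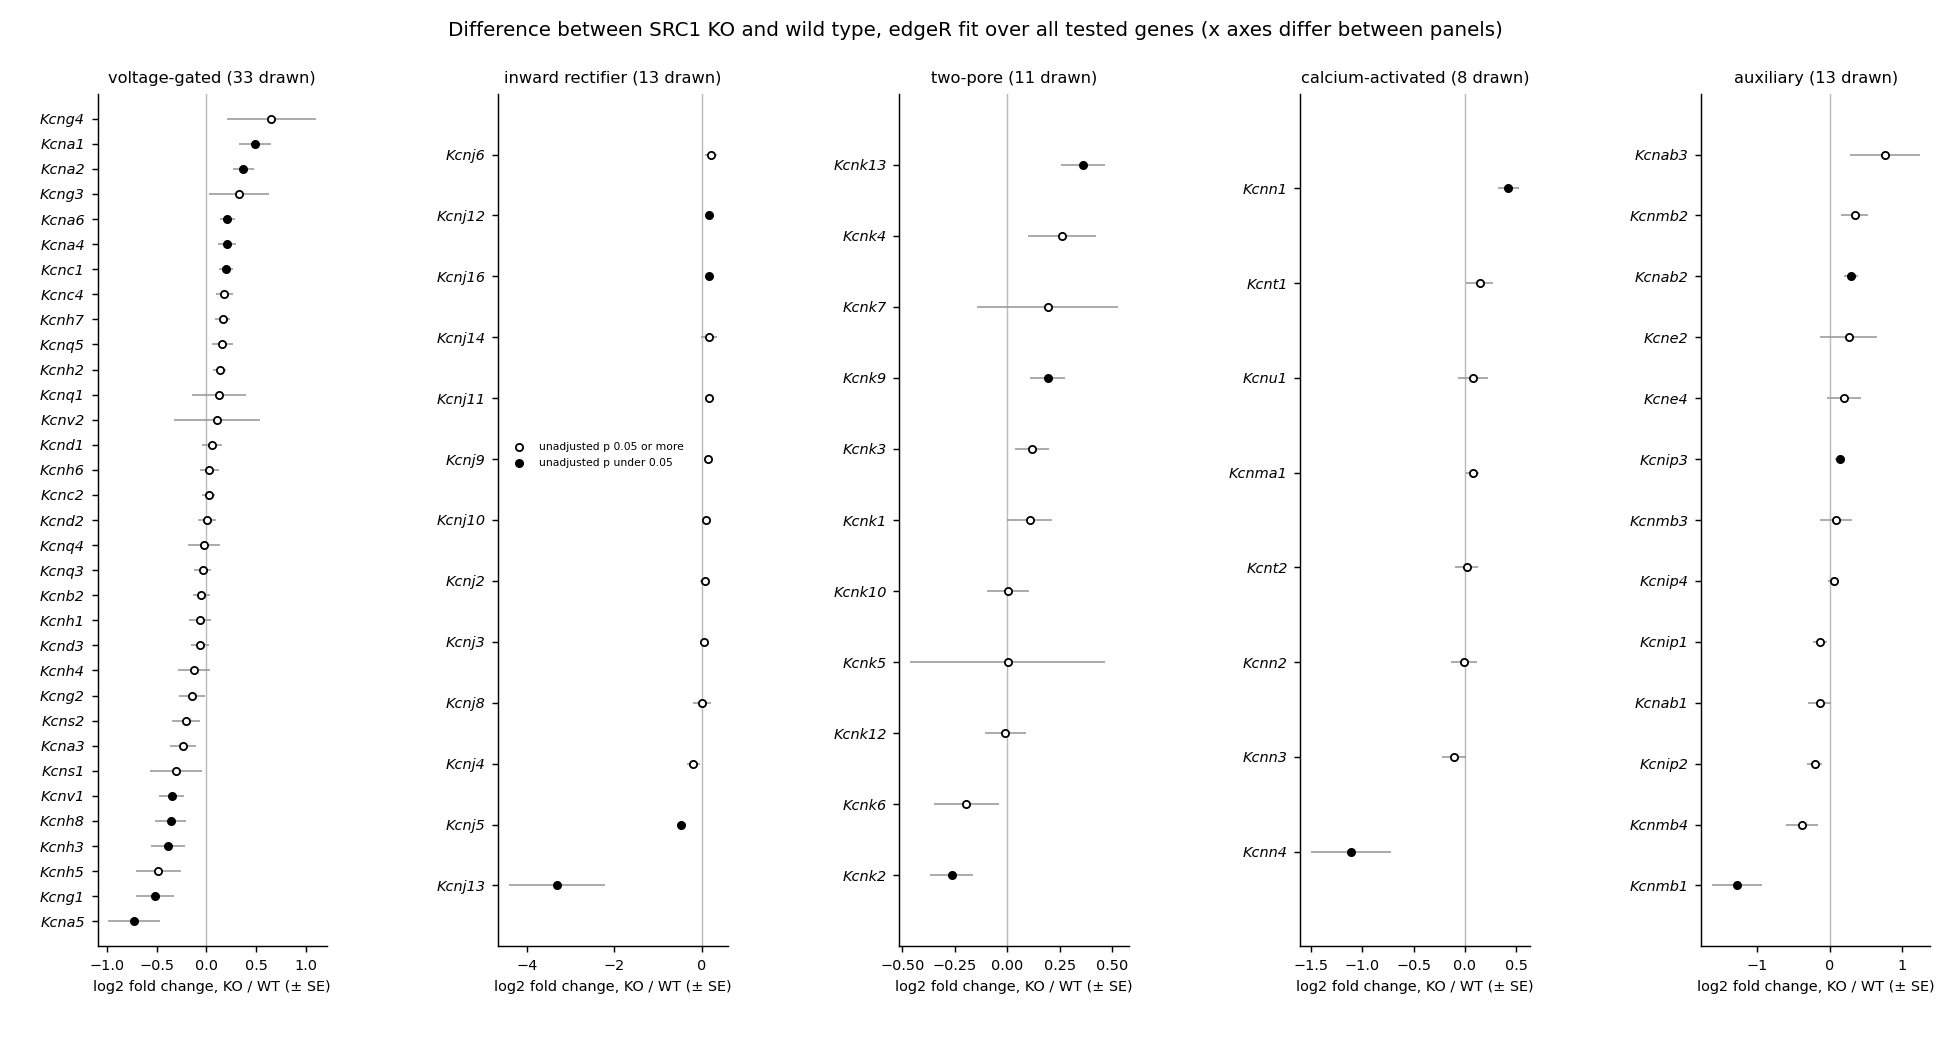
Log2 fold change of SRC1 KO over wild type with its standard error for 78 of the 81 tested channel genes, by family, from the fit over all tested genes. Filled points have an unadjusted p under 0.05 (22 genes), and none passed after adjustment. The x axes differ between panels, since Kcnj13 at -3.31 lies far from the rest.

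Channels of the Kv1 subfamily sit along axons beside the nodes of Ranvier and at terminals. Of its 6 tested genes, 5 had an unadjusted edgeR p under 0.05 (4 higher and 1 lower), against 13.0% of all tested genes. Of all tested genes 5.75% were higher and 7.21% lower at that threshold. Only Kcna2 of the 5 stayed under it with each single library left out. Kcna2 had 182, 224 and 192 CPM in wild type and 288, 262 and 224 CPM in the knockout. The groups did not overlap, but wild-type replicate 2 (224.3 CPM) and knockout replicate 3 (224.4 CPM) were almost equal. The log2 fold change with its standard error was 0.37 ± 0.11 (adjusted p 0.159). Kcna1, which assembles with Kcna2 in axons, had 57.6, 81.8 and 83.3 CPM in wild type and 114, 109 and 88.8 CPM in the knockout. Wild-type replicate 1 was the lowest library, and the log2 fold change was 0.49 ± 0.16 with an adjusted p of 0.264. Kcna6 had 152, 149 and 139 CPM against 182, 164 and 163 CPM (0.21 ± 0.072, adjusted p 0.224).

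Kcna4, an A-type subunit that inactivates quickly, overlapped between the groups, with 25.8 to 32.0 CPM in wild type and 31.5 to 35.2 CPM in the knockout (0.21 ± 0.090, adjusted p 0.363). Kcna5 went the other way. This gene, known from heart muscle and glia, had 18.2, 18.2 and 26.9 CPM in wild type and 9.58, 11.7 and 16.9 CPM in the knockout, so replicate 3 was the highest of each group. The log2 fold change was -0.73 ± 0.26 with an adjusted p of 0.325. Kcna3, a channel also of lymphocytes and microglia, stood at -0.23 ± 0.13 (adjusted p 0.519).

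Partners of Kv1 channels were read beside them. Kcnab2 had 168, 174 and 200 CPM in wild type and 248, 218 and 201 CPM in the knockout, with wild-type replicate 3 and knockout replicate 3 almost equal (0.30 ± 0.095, adjusted p 0.195). Kcnab3 was the most uneven gene of this group, at 9.83, 33.0 and 22.7 CPM against 41.0, 41.0 and 29.6 CPM (0.77 ± 0.48, adjusted p 0.631), and its groups overlapped. Kcnab1 stood at -0.14 ± 0.15. In all of Kcna1, Kcna2, Kcnab2 and Kcnab3, knockout replicate 3 was the lowest knockout library and wild-type replicate 1 the lowest wild-type library. The summed oligodendrocyte markers had the same 2 lowest libraries, at 4093 CPM in wild-type replicate 1 and 6653 CPM in knockout replicate 3. The other Kv1 and Kv beta genes did not all share that order: Kcna6 was lowest in wild-type replicate 3, Kcna4 in knockout replicate 1 and Kcnab1 in wild-type replicate 2 and knockout replicate 1.

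**Figure D3:**
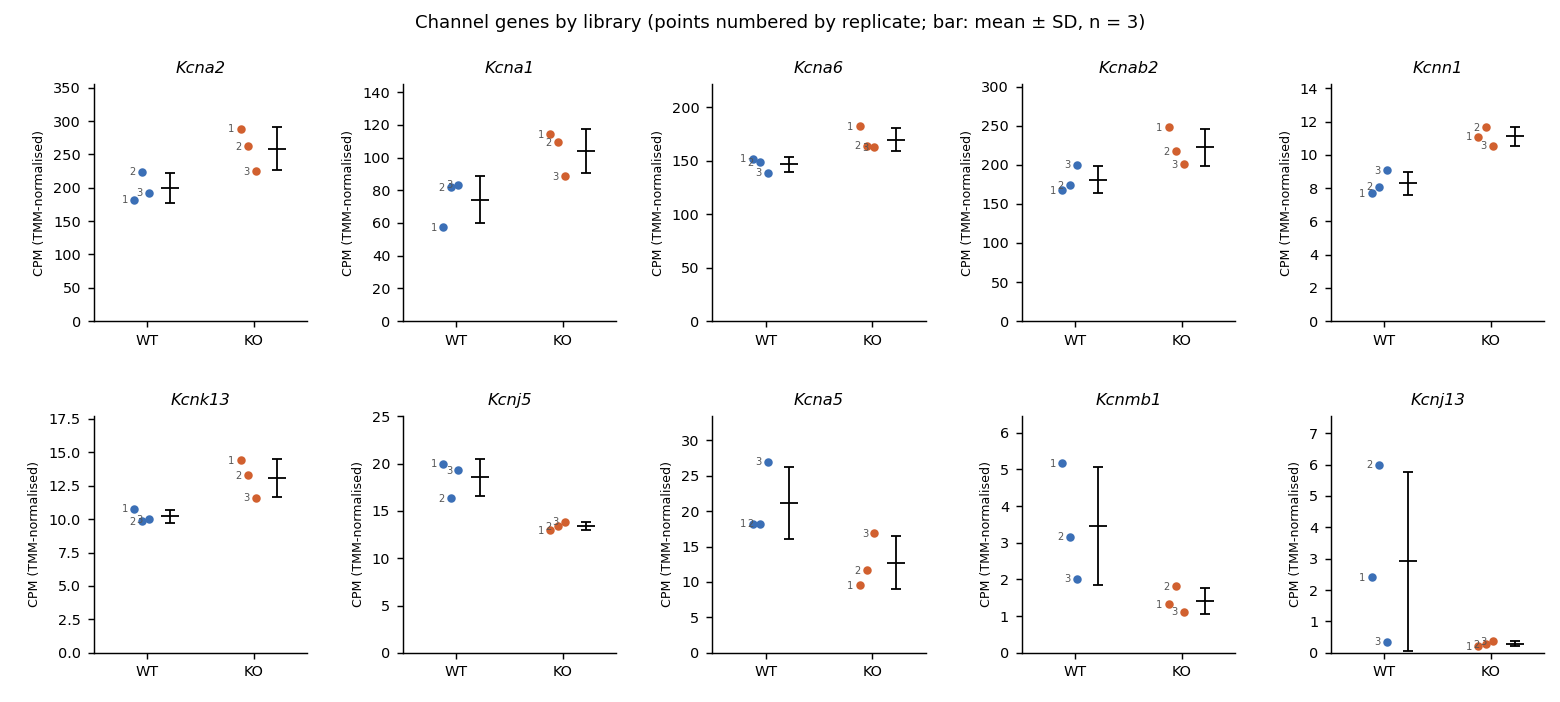
TMM-normalised CPM of 10 channel genes in each library, with replicate numbers beside the points and the mean ± SD of 3 libraries beside them. Kcna2, Kcna1, Kcna6, Kcnab2, Kcnn1 and Kcnk13 lie higher in the knockout and Kcnj5, Kcna5 and Kcnmb1 lower with no overlap, while Kcnj13 overlaps because wild-type replicate 3 is at 0.361 CPM.

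Of the other voltage-gated genes, Kcnc1 had 208, 215 and 201 CPM in wild type and 253, 244 and 218 CPM in the knockout (0.20 ± 0.074, adjusted p 0.279). Of the same subfamily, Kcnc2 and Kcnc4 stood at 0.022 and 0.18, with adjusted p of 0.938 and 0.398. Kcnq3 (-0.038 ± 0.086) had overlapping groups, as did Kcnd2 (0.0070 ± 0.088) and Kcnd3 (-0.068 ± 0.089), the A-type Kv4 channels.

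The other 4 voltage-gated genes that were lower at an unadjusted p under 0.05 were Kcnv1, Kcng1, Kcnh3 and Kcnh8. Kcnv1 and Kcng1 are silent subunits, which form no channel alone and modify Kv2 channels. Kcnv1 had 9.63, 8.79 and 9.41 CPM in wild type and 6.58, 6.75 and 8.52 CPM in the knockout (-0.35 ± 0.13, adjusted p 0.262). Kcng1 had 7.84, 5.47 and 4.55 CPM against 3.96, 4.01 and 4.49 CPM (-0.52 ± 0.19, adjusted p 0.28), with wild-type replicate 1 above the rest. Over the 8 silent genes tested the median was -0.18, with 5 negative values. Kcng4, another silent gene, varied widely within wild type (1.45, 4.62 and 4.12 CPM) and stood at 0.65 ± 0.45. The Elk-type channels Kcnh3 (-0.38 ± 0.17, adjusted p 0.377) and Kcnh8 (-0.36 ± 0.16, adjusted p 0.368) averaged 3.07 and 3.38 CPM over all libraries.

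Kcnj5 had the lowest p of all channel genes. It encodes a subunit of the G-protein-gated channel, known from the atrium of the heart and present in some hypothalamic neurons. Its level was 20, 16.3 and 19.3 CPM in wild type and 13.0, 13.4 and 13.8 CPM in the knockout. Every knockout library was below every wild-type library, and the log2 fold change was -0.47 ± 0.094, a 1.38-fold difference, with an adjusted p of 0.053. It passed without wild-type replicate 2 (adjusted p 0.0386, where 0.603% of all genes did) and did not pass with any other single library left out, with adjusted p up to 0.227. The G-protein-gated genes that can assemble with it stood at 0.053 ± 0.068 (Kcnj3), 0.21 ± 0.14 (Kcnj6) and 0.14 ± 0.095 (Kcnj9), all with overlapping groups. Kcnj1, the neighbour of Kcnj5 on chromosome 9, had 4 counts in all and was not described.

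Of the glial inward rectifiers, Kcnj10 had 445, 456 and 503 CPM in wild type and 501, 474 and 527 CPM in the knockout (0.099 ± 0.077, adjusted p 0.691), and its groups overlapped. Kcnj16 had 57.0, 53.5 and 56.2 CPM against 57.5, 62.6 and 66.5 CPM (0.16 ± 0.072, adjusted p 0.375), with wild-type replicate 1 and knockout replicate 1 close together. Summed astrocyte markers ran from 4132 to 4232 CPM in wild type and from 3875 to 4185 CPM in the knockout. Of these 10 markers 6 had a negative log2 fold change. At an unadjusted edgeR p under 0.05, 3 were higher (Aldh1l1, S100b and Aqp4) and 0 lower, and none passed after adjustment. Of all tested genes 5.75% were higher at that threshold. Kcnj12, a strong rectifier, stood at 0.17 ± 0.076 (adjusted p 0.381), with 15.5 to 16.9 CPM in wild type and 18.1 to 18.7 CPM in the knockout. Kcnj11 stood at 0.16 ± 0.079 (adjusted p 0.435).

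Kcnj13 had the largest fold of all members and the largest spread. It encodes the Kir channel of the choroid plexus and retinal pigment epithelium. The wild-type libraries held 98, 227 and 15 of its counts and the knockout libraries 9, 11 and 17, or 2.40, 6.0 and 0.361 CPM against 0.214, 0.277 and 0.372 CPM. Wild-type replicate 3 was at the level of the knockout, so the groups overlapped, and the log2 fold change was -3.31 ± 1.1 with an adjusted p of 0.312. It passed without wild-type replicate 3 (-3.84, adjusted p 0.0154), while without wild-type replicate 2 the log2 fold change was -2.24 (adjusted p 0.312). The 6 meningeal markers summed to 137, 226 and 59.5 CPM in wild type, with the same order of libraries. The 6 choroid plexus markers summed to 49.4, 48.1 and 48.8 CPM in wild type and 28.2, 35.0 and 37.0 CPM in the knockout. Clic6 (20.7 to 31.0 CPM in wild type) and Kl (12.7 to 13.2 CPM) held most of that sum. Ttr, another of the 6, had 5.91, 10.1 and 0.698 CPM in wild type, in the order of Kcnj13, and 0.262, 6.07 and 0.701 CPM in the knockout. Clic6, Kl, Folr1, Otx2 and Sostdc1 did not share that order in wild type. Of the 6 choroid plexus markers 4 had a negative log2 fold change and 2 (Otx2 and Sostdc1) a positive one. The part of either list in the Kcnj13 values was not tested.

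**Figure D4:**
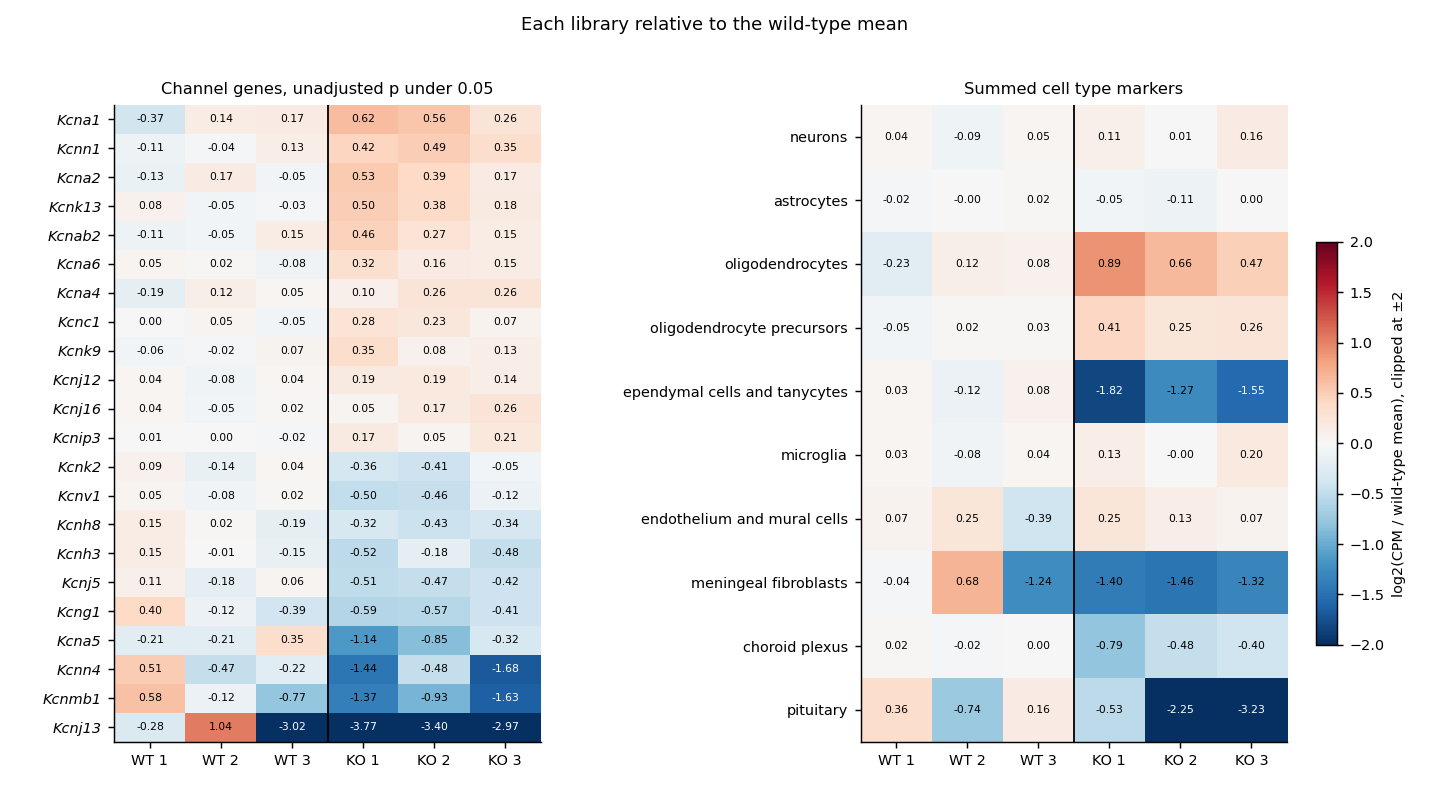
Log2 ratio of each library to the wild-type mean, for the 22 channel genes with an unadjusted p under 0.05 (left) and for the summed level of 10 cell type marker lists (right). Red is above and blue below the wild-type mean, with colours clipped at 2. Kcnj13 is low in wild-type replicate 3 and the 3 knockout libraries, and the oligodendrocyte sum is lowest in wild-type replicate 1 and highest in knockout replicate 1.

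Among the two-pore genes, Kcnk13, a halothane-inhibited channel best known from microglia, had 10.8, 9.85 and 9.99 CPM in wild type and 14.4, 13.3 and 11.6 CPM in the knockout. The groups did not overlap, and the log2 fold change was 0.36 ± 0.11 with an adjusted p of 0.159. Summed microglia markers overlapped between the groups, at 214.5 to 232.4 CPM and 225.7 to 259.9 CPM. Kcnk9 had 185, 190 and 202 CPM against 245, 203 and 211 CPM (0.19 ± 0.082, adjusted p 0.355), with knockout replicate 1 above the rest. Kcnk2 had 69.3, 59.0 and 66.8 CPM against 50.8, 49 and 62.7 CPM (-0.26 ± 0.10, adjusted p 0.302), and knockout replicate 3 lay above wild-type replicate 2. Kcnk3 (0.12 ± 0.081) and Kcnk1 (0.11 ± 0.11) had overlapping groups.

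Of the calcium-activated genes, Kcnn1, a small-conductance channel of the afterhyperpolarisation, had 7.70, 8.08 and 9.07 CPM in wild type and 11.1, 11.7 and 10.6 CPM in the knockout. The groups did not overlap, and the log2 fold change was 0.42 ± 0.11, a 1.34-fold difference, with an adjusted p of 0.0984. Its relatives Kcnn2 (-0.0071 ± 0.13) and Kcnn3 (-0.10 ± 0.12) had overlapping groups, so Kcnn1 made up 14.3% ± 1.07 of the level of the 3 genes in wild type and 19.1% ± 1.48 in the knockout. Kcnn4, the intermediate-conductance channel of blood and immune cells, had 49, 23 and 30 counts in wild type against 13, 24 and 12 (-1.11 ± 0.39, adjusted p 0.241), with wild-type replicate 2 and knockout replicate 2 almost equal in CPM. Kcnma1 had 159 to 172 CPM against 171 to 180 CPM (0.076 ± 0.065, adjusted p 0.722), and Kcnt1 stood at 0.14 ± 0.13.

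None of the 4 beta subunits of the BK channel, which set its calcium sensitivity and inactivation, passed after adjustment. Kcnmb1, known from smooth muscle, had 5.17, 3.17 and 2.02 CPM in wild type and 1.33, 1.81 and 1.12 CPM in the knockout. The groups did not overlap, although the wild-type libraries spanned more than the gap between the groups, and the log2 fold change was -1.28 ± 0.35 with an adjusted p of 0.148. It passed without wild-type replicate 3 (adjusted p 0.0396), where 0.863% of all genes did. Kcnmb4, the neuronal form, stood at -0.38 ± 0.22, Kcnmb2 at 0.35 ± 0.18 and Kcnmb3 at 0.089 ± 0.22, with adjusted p from 0.486 to 0.919. Kcnmb1 made up 42.1% ± 8.62 of the level of the 4 genes in wild type and 27.1% ± 6.24 in the knockout. The sum of 8 endothelial and mural cell markers overlapped, at 193.9 to 301.9 CPM and 268.0 to 302.5 CPM. At an unadjusted edgeR p under 0.05, 1 of the 8 was higher (Rgs5, 0.31 ± 0.0815) and 0 lower. Of all tested genes 5.75% were higher at that threshold. The part of these cells in the Kcnmb1 values was not tested.

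None of the 4 calcium sensors that bind Kv4 channels passed either. Kcnip3 had 65.9, 65.4 and 64.5 CPM in wild type and 73.6, 67.7 and 75.3 CPM in the knockout (0.15 ± 0.065, adjusted p 0.383). Kcnip1, Kcnip2 and Kcnip4 stood at -0.13, -0.21 and 0.058, with overlapping groups and adjusted p from 0.478 to 0.842. The small single-pass subunits Kcne2 and Kcne4 averaged 0.312 and 1.17 CPM over all libraries and stood at 0.26 ± 0.40 and 0.20 ± 0.24.

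**Figure D5:**
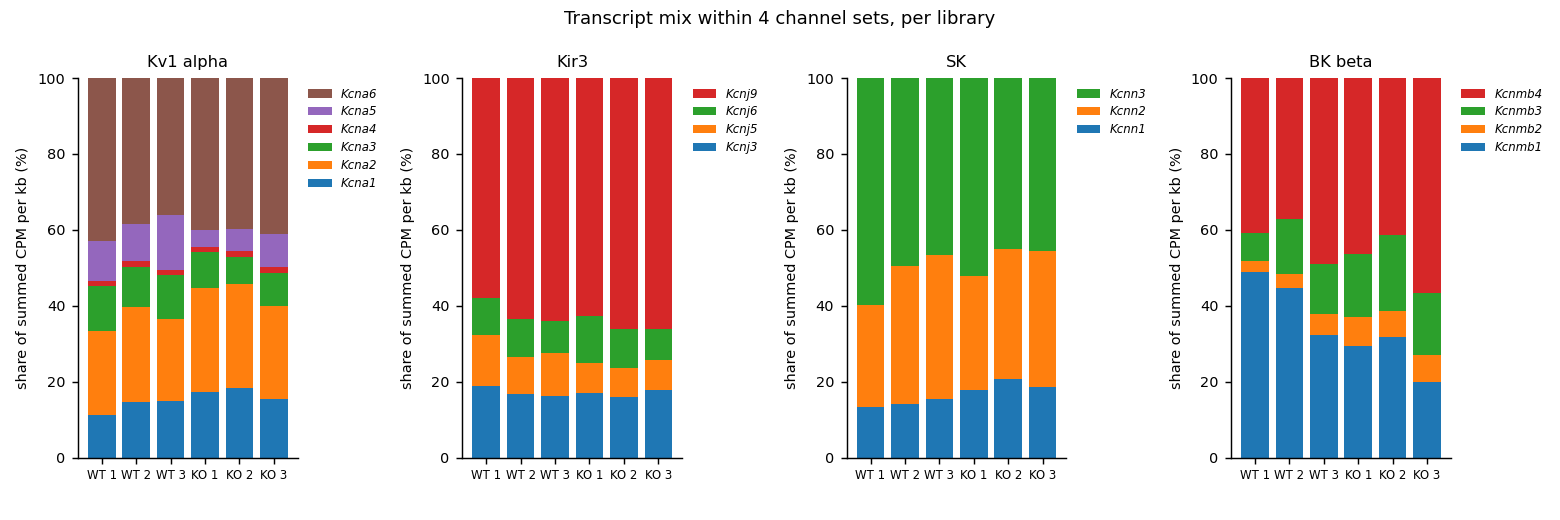
Share of each gene in the summed level (CPM per kb) of 4 channel sets, 1 bar per library. The share of Kcna5 is smaller and that of Kcna1 larger in the knockout, Kcnj5 is a smaller part of the Kir3 set and Kcnn1 a larger part of the SK set. Shares within a set add to 100%, so they are not independent of each other.

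Within the Kv1 set, Kcna5 made up 11.6% ± 2.51 of the level in wild type and 6.34% ± 2.26 in the knockout, and Kcna1 13.6% ± 2.06 and 17.1% ± 1.47, with no overlap between the groups in either. Kcna3 made up 11.2% ± 0.603 and 8.46% ± 1.21, again with no overlap. Kcna2 (22.9% ± 1.87 and 26.4% ± 1.73) and Kcna6 (39.1% ± 3.49 and 40.3% ± 0.649) overlapped. Kcnj5 made up 11.5% ± 1.92 of the G-protein-gated set in wild type and 7.84% ± 0.208 in the knockout. With 3 libraries against 3 an exact permutation test cannot go below 0.1, so shares were not tested.

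Several members are neighbours on a chromosome. Kcna5, Kcna1 and Kcna6 lie side by side on chromosome 6, between 126509514 and 126717797 (GRCm39), with 100.9 and 62.5 kb between them. Their log2 fold changes were -0.73, 0.49 and 0.21. On chromosome 3, Kcna3 and Kcna2 lie 52.8 kb apart and stood at -0.23 and 0.37. Kcnj9 and Kcnj10 lie 11.9 kb apart on chromosome 1 and stood at 0.14 and 0.099. Kcna5 and Kcna1 thus had opposite signs, as did Kcna3 and Kcna2, while Kcna1 and Kcna6 were both positive. Kcnmb1 lies inside the span of Kcnip1 on chromosome 11, and its exons share no bases with another gene.

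Promoters of 61 members were found in a RefSeq table (GRCm38.p6), taken as the 250 bases before the gene's start. They had a median of 60.0% G and C, against 52.0% over all 27025 promoters. The nuclear receptor half-site AGGTCA, on either strand, was in 4 of the 61 (6.56%) and in 13.8% of all promoters. The glucocorticoid receptor half-site AGAACA, on either strand, was in 5 (8.2%) and in 16.1%. These are matches of letters in a short window, not sites of binding.

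Genes whose products anchor or regulate these channels were read from the same fit. Of 28 tested, Lgi3 rose and none fell, where 0.834% of all tested genes were called. At an unadjusted edgeR p under 0.05, 4 were higher and none lower, a share near the 13.0% of all tested genes in either direction. By direction, 5.75% of all tested genes were higher and 7.21% lower. The median log2 fold change was 0.037. Lgi3, a secreted protein that gathers Kv1 channels on axons, had 135.9, 144.2 and 148.3 CPM in wild type and 209.6, 186.6 and 174.3 CPM in the knockout (0.41 ± 0.080, adjusted p 0.0482). With 1 library left out its adjusted p ran from 0.0315 to 0.184, and among these fits it passed only without knockout replicate 3. DESeq2 and limma-voom also called it, but the call was lost with library totals alone (adjusted p 0.0798) and with a stricter filter (0.0597). The other genes with an unadjusted p under 0.05 were Adam11 (0.23 ± 0.090), a receptor for this family, Sptbn4 (0.29 ± 0.11), a spectrin of the axon initial segment, and Lrrc55 (0.17 ± 0.074), a BK partner. Abcc8 and Abcc9, the sulfonylurea receptors of the ATP-sensitive channel, stood at 0.19 and -0.032, and Dpp6 and Dpp10, partners of Kv4, at -0.034 and -0.027.

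At the edge of detection, Kcnk15 and Kcnk16 had 8 counts each and fell just outside the minimum of 10 summed counts, and Kcnk18 with 14 was just inside. Kcna7 and Kcnj1 had 4 counts each and Kcne1 had 2. Kcna10, Kcnj15, Kcne3 and Kcnk18, with 14 to 37 counts, were described but had too few counts to be tested. Reads in exons shared with another gene were not counted, which could lower the value of Kcnk7 (25.6% of exon bases shared), Kcnmb4 (17.3%), Kcnmb3 (15.1%), Kcnn2 (13.9%), Kcng2 (12.8%) and Kcns2 (12.7%). All other described members shared under 10%.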

How the data were processed

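The deposited file lists, for the 6 libraries, whole-number counts of read pairs that the authors did not normalize, beside each gene's exon length. RNA was extracted with RNeasy and libraries made with Illumina TruSeq per the labels' protocols. Alignment used STAR 2.7.10a (per the submitters' processing notes). Pairs were counted with featureCounts over RefSeq exons of mm39 (GRCm39) per the file headers, with version 2.0.0 in the header and 2.0.3 in the notes. No strand or multi-mapping option was set, so strands cannot be told apart and reads matching several genes were not counted. Every line names a gene, and all value columns were used.

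Counts were tested with edgeR 4.0.16 in R 4.3.3 (TMM scaling, default filter with a minimum count of 10, robust quasi-likelihood F-test, Benjamini-Hochberg adjustment over all 20257 tested genes). Standard errors were obtained as the size of the log2 fold change over the root of its F statistic. Libraries of 1 group differed by more than sampling noise (chi-square over its degrees of freedom 8.87 or more). Alternatives were other scaling and filters, DESeq2 1.42.0, limma-voom (limma 3.58.1), a replicate block and leaving out libraries. Tests were checked on simulated data.

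Members and lists were chosen with earlier results of these data known. Genes named were Ncoa1, members with an unadjusted p under 0.05, the 4 highest per length in each family, those at the minimum of 10 counts, the 3 with the largest spread, and partners that passed or had the lowest p. Some members that this rule would name are counted but not reported here, and the figures leave them out. Other members were chosen after their values were seen.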

Additional observations from a re-analysis of the deposited data

How the results depend on the processing

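The count of 169 genes over the whole table was 66 with library totals alone, 966 with no filter, 84 with a stricter filter, 825 with DESeq2, 36 to 260 with 1 library left out and 29 without both first replicates, a setting chosen after seeing the data. The count of 0 channel genes was 6 with no filter (Kcnmb1, Kcnj5, Kcnn1, Kcnn4, Kcnab2 and Kcna2), 6 with DESeq2, 0 to 2 with 1 library left out and 0 with the other scalings, the stricter filter and limma-voom. The fit with a replicate block called 1 (Kcna5, -0.74, edgeR adjusted p 0.0187). Deviations of libraries with the same number correlated at -0.21, 0.35 and 0.22, so the numbers were not taken as a pairing. The count of 1 partner gene was 0 with library totals alone, the stricter filter, the replicate block and without both first replicates, 2 with no filter, and 0 to 1 with 1 library left out.

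The median log2 fold change of the channel genes stayed positive in every fit, from 0.025 without both first replicates to 0.082 without wild-type replicate 2. The median wild-type level of the channel genes was 2.07 CPM per kb, and 2.09 with library totals alone. Library totals alone moved the median of all genes to -0.026. Of 516 values of single named genes, 485 kept their direction and side of the threshold, 9 (all of Lgi3) lost and 16 gained a call, and 6 changed sign, all near 0. These were Kcnk1 without both first replicates (-0.013), and Kcnn2 with limma-voom (0.011), the replicate block (0.0066), without wild-type replicate 2 (0.048) or 3 (0.095) or knockout replicate 1 (0.023). With each library left out in turn, Kcnk1 reached 0.24 at most and Kcnn2 ran from -0.15 to 0.095. The cause was not tested. With 3 libraries a group and a common biological variation of 12.3%, small differences were not detectable.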
